A study of Arabis alpina with 12 samples.

Results

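The expression of 5 genes was followed through 4 groups of Arabis alpina bud libraries: ELF4, BOA, PRR5 and FKF1, whose A. thaliana homologues act in the evening phase of the circadian clock or in its light input, and COR28, a cold-regulated clock gene. They were chosen by homology, as every gene whose paired A. thaliana locus is AT2G40080 (ELF4), AT5G59570 (BOA), AT5G24470 (PRR5), AT1G68050 (FKF1) or AT4G33980 (COR28). Each of the 5 loci matched 1 A. alpina gene, so that the members are 5 of the 3884 genes that the authors listed as changed in at least 1 comparison, in a table of 19722 genes. A homologue is paired only with listed genes, 2896 of them, so each member had already been listed as changed on these same libraries.

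Polyadenylated RNA of lateral buds was sequenced in A. alpina, ecotype Pajares, a perennial relative of A. thaliana. All plants first grew for 8 weeks in long days (16 h of light at 20 °C, 8 h of dark at 18 °C) and then spent 12 weeks at 4 °C, also with 16 h of light. V2 buds came from the zone of the shoot in which buds are dormant, and V3 buds from the zone in which they grow out. Harvests took place when the cold ended (0 d) and 5 days after it (5 d), the later plants having returned to the warm long days in between. The 4 groups, V2 at 0 d, V3 at 0 d, V2 at 5 d and V3 at 5 d, held 3 libraries each, named as biological replicates in the labels. No group carries a mutation or transgene. The hour of the day at which buds were cut is not given in the sources used here, and the 5 genes have transcripts that cycle over the day in A. thaliana. Whether the groups differed in that hour was not tested.

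The circadian clock of A. thaliana is a set of transcriptional repressors that follow each other through the day. MYB-like factors rise at dawn, pseudo-response regulators repress them in turn from morning to evening, and the evening complex of ELF3, ELF4 and LUX represses daytime genes at night. FKF1 reads blue light in the afternoon and links the clock to day length and flowering, while COR28 and its relative COR27 link it to cold.

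Reads recovered per library came to between 12252622 in V2 0 d replicate 3 and 22586938 in V3 5 d replicate 3, with 18377958 or more in every library but the former. Many zeros of the count table were contradicted by the FPKM of the same library or by its partner libraries, and such zeros were left out library by library. V2 0 d replicate 3 lost 6553 values in this way, the remaining libraries 886 to 1224. Among the 60 member values, 1 was left out, the 0 of COR28 in V3 5 d replicate 2, where the FPKM is 2.02. Normalized counts below are the authors' counts after scaling each library, which suit comparisons of 1 gene between libraries. FPKM, which scale reads by gene length and library size, suit comparisons between genes. Differences are log2 differences of normalized count + 1 from limma. For low genes they can understate a change, or exceed the ratio of mean counts where some libraries of a group are at 0. For FKF1 between the zones at 5 d the fitted fold was 76.5 and the ratio of mean counts 16.8. A gene was called at a Benjamini-Hochberg adjusted p under 0.05 over all genes tested.

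At 5 d after the cold, buds of the growing zone had the lowest mean level of each of these genes among the 4 groups. By limma 5 of the 5 members were lower in V3 than in V2 at 5 d, a direction in which 20.0% of 16934 genes tested were called. At 0 d 0 of the 5 were called different between the zones, where 4.34% of 16435 genes were. In that fit 0 had an unadjusted p under 0.05, and edgeR and DESeq2 called 0. For FKF1 the zones did not overlap at 0 d, V3 below V2, as in 18.9% of the genes tested. Its p in that fit also carries the spread of V3 at 5 d. ELF4, BOA, FKF1 and COR28 fell in V3 between 0 and 5 d, as did PRR5, which makes 5 of 5 beside 11.1% of 16872 genes called lower. Those 4 were not called in V2 over that time. PRR5 alone of the 5 was called in both zones over time, and in opposite directions: it rose in V2 and fell in V3. The rise was called in 25 of 25 alternative settings and the fall in 16 of 25. In bulk samples, fewer cells that express a gene and less RNA of it per cell cannot be told apart.

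**Figure D1:**
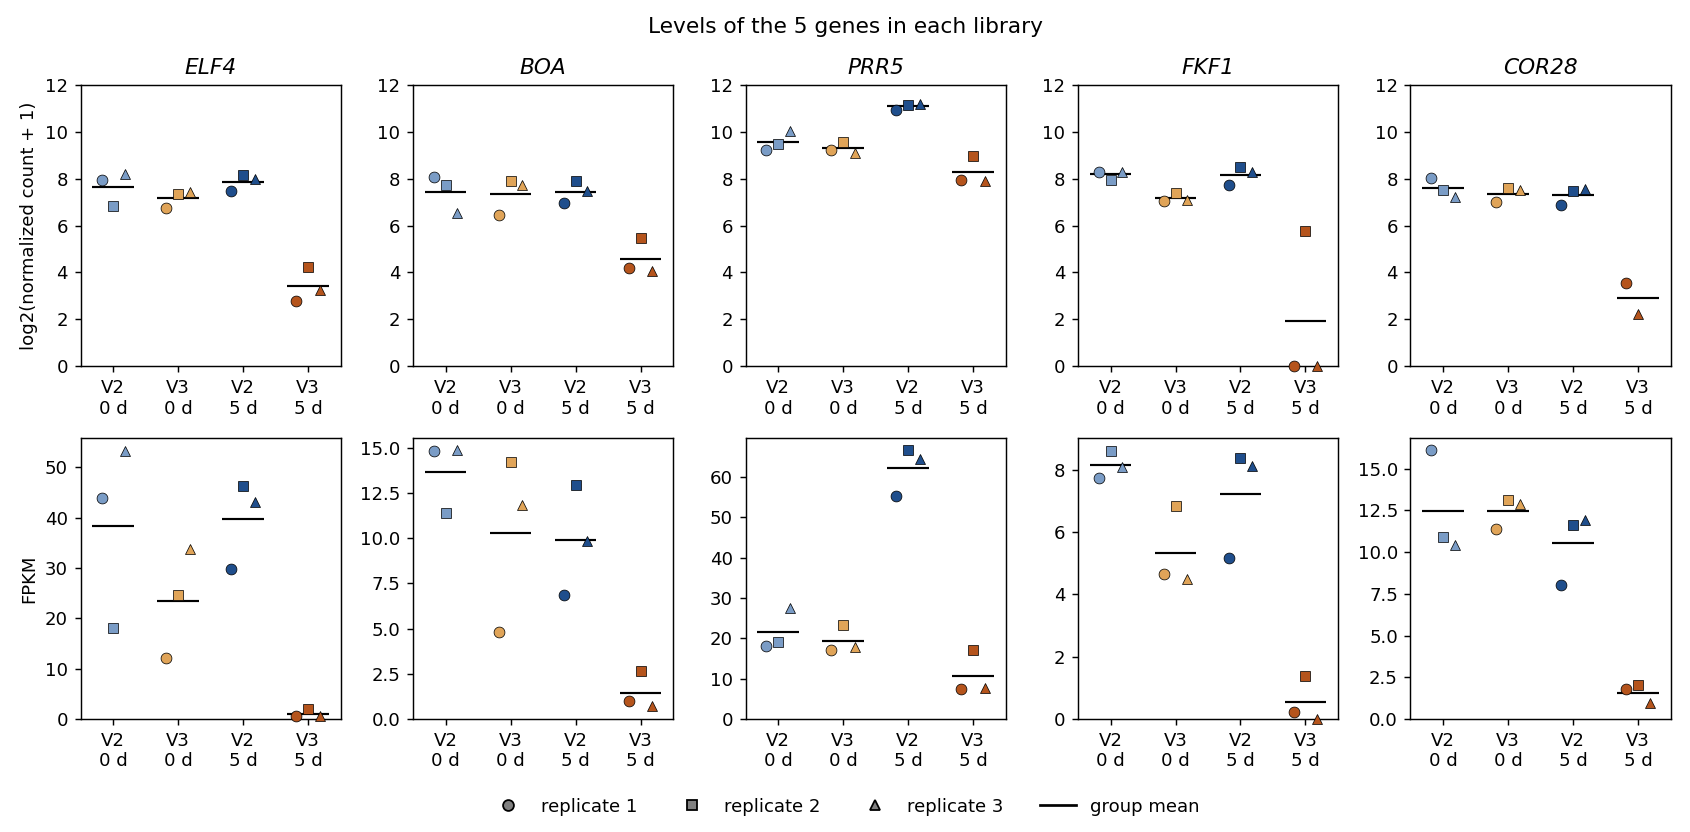
Each point is 1 library, the colours and columns are the 4 groups, and the line is the group mean. The upper panels give log2(normalized count + 1) and the lower panels FPKM from 0. In all 5 genes the V3 5 d libraries lie lowest, and in PRR5 the V2 5 d libraries lie highest. The COR28 value of V3 5 d replicate 2 is left out of the upper panel.

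ELF4 (Aa_G224250, homologue of AT2G40080.1) encodes a small protein of the evening complex. At 0 d V2 buds had normalized counts of 247, 114 and 290.0, and V3 buds 106, 163 and 174. At 5 d V2 buds had 176, 283 and 255, and V3 buds 5.85, 17.9 and 8.42. V2 0 d overlaps both V3 0 d and V2 5 d, V3 0 d lies just below V2 5 d, and the V3 5 d libraries lie below the other 9. These last values rest on 6, 17 and 9 reads. In FPKM the gene stood at 38.4 ± 18.2 (SD, n = 3) in V2 0 d, 23.5 ± 10.8 (SD, n = 3) in V3 0 d and 39.7 ± 8.75 (SD, n = 3) in V2 5 d, against 1.06 ± 0.795 (SD, n = 3) in V3 5 d.

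For ELF4 the zones at 5 d differed by -4.46 (SE 0.45, 95% interval -5.47 to -3.44), with an adjusted p of 0.000151 by limma. V3 fell by 3.76 on the log2 scale between 0 and 5 d (SE 0.45, adjusted p = 0.000384 by limma), while the difference in V2 was 0.21 (adjusted p = 0.772). The ratio of V2 to V3 at 5 d was 22.2 in mean normalized counts and 37.6 in mean FPKM. This gap goes with a count per FPKM of 9.09 to 14.3 in the V3 5 d libraries and 5.17 to 8.68 in the others. Both measures put the 3 V3 5 d libraries below the other 9. The authors' deposited table gives a log2 fold change of -4.48 for ELF4 between the zones at 5 d.

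BOA (Aa_G28220, homologue of AT5G59570.1) encodes a GARP-family transcription factor closely related to LUX, the DNA-binding subunit of the evening complex. Normalized counts at the end of the cold were 269, 212 and 90.6 for V2 and 87.1, 239 and 209 for V3. By 5 d V2 had 123, 237 and 177, while V3 had 17.5, 43.3 and 15.9. The low V2 value at 0 d, replicate 3, goes with 6.10 counts per FPKM, where the other 0 d libraries had 16.8 to 18.6, and its FPKM of 14.9 was the highest of its group. As for ELF4, the V3 5 d libraries lie below the other 9, here on 18, 41 and 17 reads.

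Between the zones at 5 d BOA differed by -2.85 (SE 0.56, 95% interval -4.10 to -1.61), with an adjusted p of 0.00375 by limma. Over time V3 fell by 2.77 on the log2 scale (SE 0.56, adjusted p = 0.00616 by limma). The ratio of V2 to V3 at 5 d came to 6.99 in normalized counts and 6.78 in FPKM, so that the measures gave nearly the same size. BOA and ELF4, whose products have roles around the same complex, thus moved the same way, and the fitted difference was larger for ELF4. Whether the sizes differ between the genes was not tested.

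PRR5 (Aa_G45380, homologue of AT5G24470.1) encodes a pseudo-response regulator that represses the morning genes CCA1 and LHY in A. thaliana. It had the highest normalized counts of the 5, at 0 d 605, 707 and 1034 for V2 and 592, 765 and 552 for V3. At 5 d the V2 counts were 1959.9, 2276 and 2322, and the V3 counts 243, 507 and 239.6. The V2 libraries at 5 d lie above, and the V3 libraries at 5 d below, every library of 0 d, which overlap between the zones. Within V3 at 5 d, replicate 2 lies far above its partners and close to the lowest V3 library of 0 d.

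PRR5 rose in V2 by 1.52 on the log2 scale (SE 0.29, 95% interval 0.86 to 2.17, adjusted p = 0.00631 by limma), a ratio of 2.79 in mean normalized counts and 2.89 in FPKM. In V3 it fell by 1.03 (SE 0.30, 95% interval -1.70 to -0.36), with an adjusted p of 0.0331 by limma. The call of this fall was lost in 9 of 25 alternatives, among them leaving out V3 0 d replicate 1, 2 or 3 (adjusted p of 0.0619, 0.0894 and 0.0542 by limma) or V3 5 d replicate 1 or 3 (0.113 and 0.110). The rise in V2 was called in 25 of 25. At 5 d the zones differed by -2.82 (SE 0.30, adjusted p = 0.000194 by limma), a ratio of 6.63 in counts and 5.79 in FPKM.

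FKF1 (Aa_G28730, homologue of AT1G68050.1) encodes a blue-light receptor with an F-box, which in A. thaliana marks CDF repressors of flowering genes for degradation in long days. At 0 d the normalized counts of V2 were 315, 246 and 312, and those of V3 131, 169 and 137. V2 at 5 d had 209, 361 and 314. In V3 at 5 d the gene had 0, 52.8 and 0, from 0, 50 and 0 reads. A count of 0 allows up to 3 reads, or 2.92 normalized counts in replicate 1 and 2.81 in replicate 3, which covers counting error only. FPKM of these libraries was 0.212, 1.39 and 0, so both scales place replicate 2 highest and the group lowest.

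At 0 d FKF1 is the 1 member whose zones do not overlap, V3 having a mean count of 146 ± 20.4 and V2 one of 291 ± 38.9 (SD, n = 3 each). Such separation, V3 below V2, was found in 18.9% of the genes tested. The difference of -0.99 was not called (95% interval -3.76 to 1.78, adjusted p = 0.654 by limma). The fit uses a common spread for the 4 groups, so this interval also carries that of V3 at 5 d, outside this comparison. The lowest adjusted p over 25 alternatives was 0.0682. At 5 d the zones differed by -6.26 (SE 1.26, 95% interval -9.09 to -3.42, adjusted p = 0.00452 by limma). V3 fell by 5.27 over time (SE 1.27, 95% interval -8.11 to -2.43, adjusted p = 0.0145 by limma). The size of both depends on how the zeros enter. In mean FPKM the ratio between the zones at 5 d was 13.6, and edgeR on whole reads did not call the difference (adjusted p = 0.158). The fall over time was lost in 5 of 25 alternatives, with an adjusted p of 0.0541 without V3 5 d replicate 1 and 0.0528 without replicate 3 by limma.

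COR28 (Aa_G616700, homologue of AT4G33980.2) is cold-induced in A. thaliana, where its product represses clock genes including PRR5 and limits freezing tolerance. Normalized counts at 0 d were 264, 182 and 147 for V2 and 126, 192 and 182 for V3, when all plants had been in the cold for 12 weeks. At 5 d V2 had 118, 178 and 188. In V3 at 5 d the values were 10.7 in replicate 1 and 3.74 in replicate 3, from 11 and 4 reads, with replicate 2 left out as above. The V2 libraries overlap between the times, and the V3 libraries at 5 d lie below all others.

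COR28 differed between the zones at 5 d by -4.42 (SE 0.43, 95% interval -5.40 to -3.43, n = 2 in V3) with an adjusted p of 0.000206 by limma. V3 fell by 4.47 between 0 and 5 d (SE 0.43, n = 2 at 5 d, adjusted p = 0.000183 by limma), and V2 differed by -0.28 (95% interval -1.15 to 0.59, adjusted p = 0.647). The days in the warm therefore went with a called fall in V3 and with none in V2. The count ratio of 22.3 between the zones at 5 d stands beside 6.66 in FPKM, where all 3 libraries enter at 1.78, 2.02 and 0.943. The count per FPKM was 6.03 and 3.97 in the V3 5 d libraries used and 11.1 to 16.7 in the other groups. On log2(FPKM + 0.1) the difference was -2.70 (adjusted p = 2.75e-05 by limma over the listed genes, of which 34.0% were called lower).

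**Figure D2:**
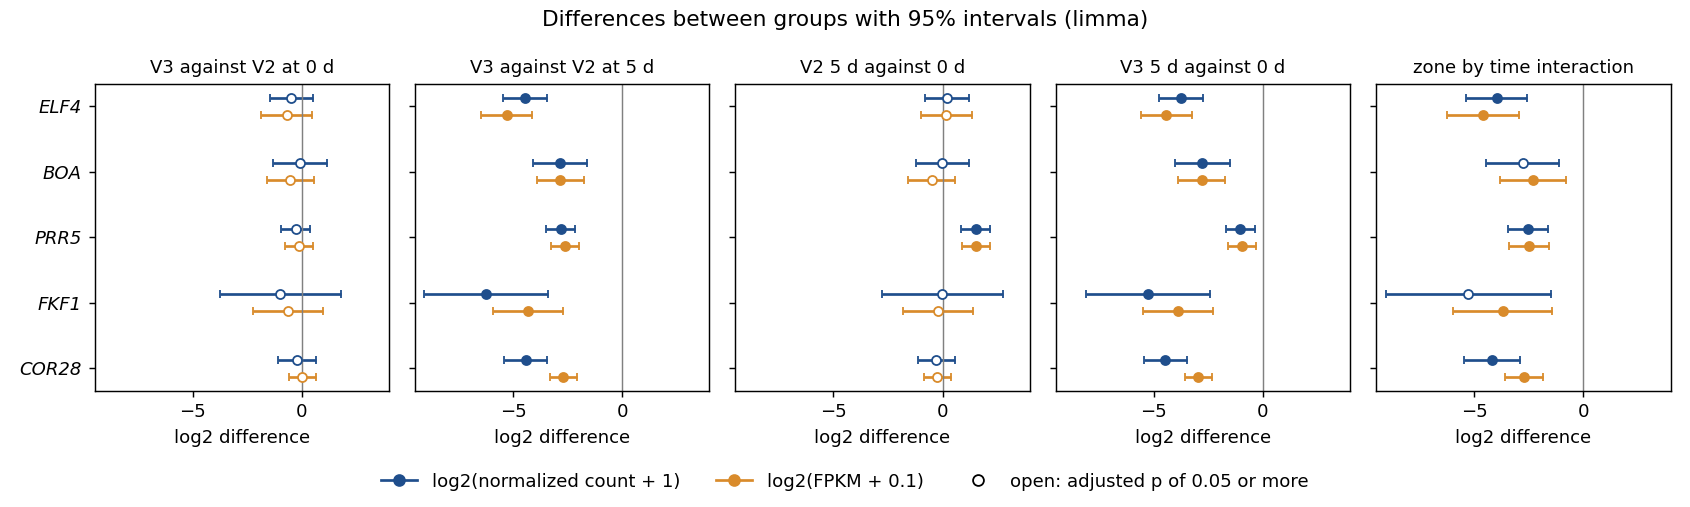
Points are log2 differences of each gene with 95% intervals, in blue from normalized counts and in orange from FPKM, for the 4 comparisons and for the zone by time interaction. Filled points have an adjusted p under 0.05. Between the zones at 5 d all 5 genes lie left of 0 on both scales, at 0 d all intervals include 0, and in V2 over time PRR5 is the 1 gene whose intervals exclude 0.

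The zones at 5 d differed in many genes, 36.3% of those tested in either direction. Since every one of the 5 is also in the authors' list for that comparison, the count of 5 called members is not independent evidence. The zones at 5 d did not overlap, V3 below V2, in 5 of 5 members and in 30.6% of the genes tested. The median of the 5 differences was -4.42, and that of all genes tested -0.03. The share of tested genes with a lower difference than the member was 0.313% for FKF1, 0.856% for ELF4, 0.868% for COR28, 2.14% for BOA and 2.19% for PRR5. Thus the 5 were all near the low end of a comparison in which many genes were called. The list took only genes with an absolute log2 fold change above 1, so these ranks, the median and the lack of overlap are not independent evidence either.

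Over time in V2, 12.5% of 16506 genes were called higher and 11.3% lower, and of the 5 members 1 was higher, PRR5, and 0 lower. PRR5 is also the 1 member whose V2 libraries do not overlap between the times, as was the case, with 5 d above, in 25.1% of genes. The V3 libraries at 5 d lay below those at 0 d in 5 of 5 members and in 21.2% of genes. The median difference of the members was -3.76 in V3 and -0.00 in V2, against -0.02 and 0.00 for all genes tested. ELF4, BOA and COR28 are in the authors' list for V3 over time and PRR5 in that for V2, so these counts and medians are not independent evidence. The comparisons also share libraries: V3 at 5 d stands in both the zone comparison at 5 d and the V3 time comparison, so their calls are not separate evidence.

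**Figure D3:**
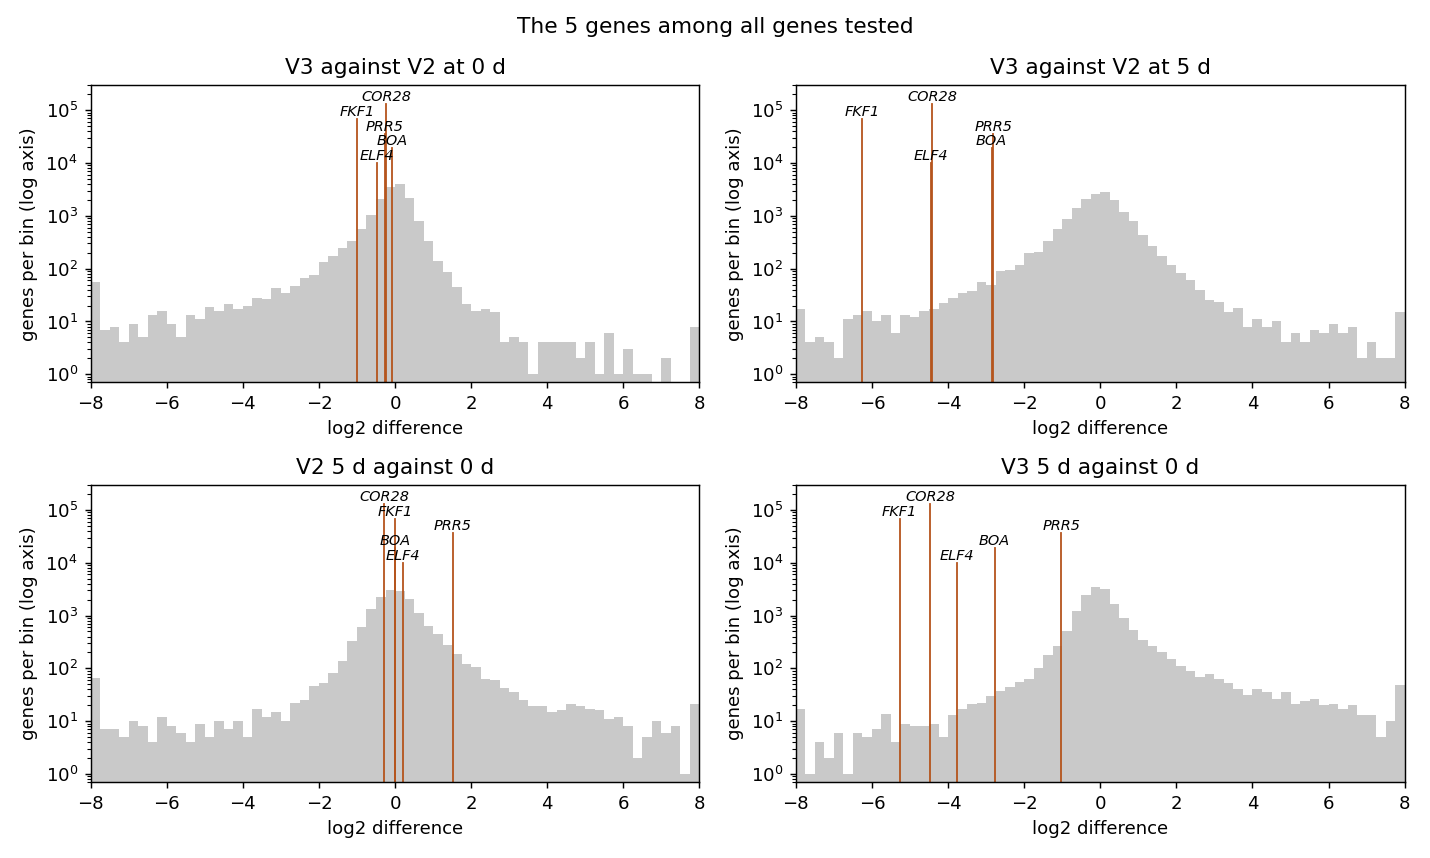
Grey bars count all genes tested by log2 difference in bins 0.25 wide, on a log axis, with values beyond 8 in the end bins, and vertical lines mark the 5 genes at staggered heights that carry no value. In V3 against V2 at 5 d all 5 lines stand between -6.26 and -2.82, at 0 d they stand between -0.99 and -0.08.

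The same fit then tested whether the zones changed differently with time. This interaction, V3's log2 change less V2's, was called in 7.02% of 16043 genes and lower in V3 in 3.01%, and in 3 of the 5 members. For ELF4 it was -3.98 (SE 0.63, adjusted p = 0.00424 by limma), for COR28 -4.19 (SE 0.57, adjusted p = 0.00254, n = 2 in V3 5 d) and for PRR5 -2.54 (SE 0.41, adjusted p = 0.00483). BOA, at -2.77 (95% interval -4.46 to -1.09, adjusted p = 0.0545 by limma), and FKF1, at -5.26 (95% interval -9.04 to -1.49, adjusted p = 0.0943), missed the threshold. On log2(FPKM + 0.1) all 5 were called, where 9.60% of 3863 listed genes were called lower. There BOA had -2.30 (adjusted p = 0.0309 by limma) and FKF1 -3.69 (adjusted p = 0.0242). FKF1 was also called on counts without V3 5 d replicate 2, its 1 library with reads in that group, but a group at 0 throughout adds no spread to the fit and its p can be too low. For ELF4 and PRR5 the call held in 25 of 25 alternatives, for COR28 in 22 of 23. The interaction contains the zone difference at 5 d, for which the authors listed all 5 members. The counts of members with a called interaction are therefore not independent evidence.

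The 5 genes differed in abundance, and their order changed with the group. In FPKM at 0 d, ELF4 was highest and FKF1 lowest by group mean in both zones. In V2 at 0 d the means were 38.4 for ELF4, 21.5 for PRR5, 13.7 for BOA, 12.5 for COR28 and 8.14 for FKF1. ELF4 and PRR5 overlapped there, as did BOA and COR28. In V2 at 5 d PRR5 led with 62.2 ± 6.05 (SD, n = 3), above every ELF4 library, and COR28 at 10.5 ± 2.15 and BOA at 9.90 ± 3.04 (SD, n = 3 each) did not differ beyond their spread. In V3 at 5 d PRR5 remained at 10.7 ± 5.44 (SD, n = 3) while COR28 had 1.58 ± 0.565, BOA 1.46 ± 1.06 and ELF4 1.06 ± 0.795 (SD, n = 3 each), which overlap, and FKF1 had 0.533 ± 0.746 (SD, n = 3).

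A ratio of 2 genes within a library does not depend on that library's scaling. The FPKM ratio of PRR5 to ELF4 at 0 d was 0.411, 1.06 and 0.516 for V2 and 1.40, 0.943 and 0.529 for V3. By 5 d it was 1.86, 1.44 and 1.50 for V2 and 12.3, 8.63 and 13.3 for V3. It was higher at 5 d than at 0 d in every library of both zones, with PRR5 higher at 5 d than at 0 d in V2 and ELF4 further below its 0 d level than PRR5 in V3. The ratio of PRR5 to BOA ran from 1.21 to 3.53 at 0 d, and at 5 d was 8.06, 5.15 and 6.54 for V2 and 7.52, 6.36 and 10.9 for V3. The ratio of PRR5 to FKF1 ran from 2.22 to 3.95 at 0 d and from 7.94 to 10.7 for V2 at 5 d. For V3 at 5 d it was 34.9 in replicate 1 and 12.3 in replicate 2, above V2, and undefined in replicate 3, where FKF1 is at 0. For BOA the zones at 5 d overlap, as they do for PRR5 to COR28, at 6.88, 5.76 and 5.41 for V2 and 4.17, 8.43 and 8.28 for V3.

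Replicates of a group tended to be high or low in several of the genes together. In V2 at 5 d replicate 1 was the lowest in 5 of 5 members, in counts and in FPKM alike. V3 5 d replicate 2 was highest in 5 of 5 members by FPKM, and V3 0 d replicate 1 lowest in 4 of 5. Whether these libraries differ in harvest or in tissue was not tested. The members are therefore not separate measurements of a group.

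By the root mean square difference of centred log2 values over the libraries usable in both, the nearest pair among the members was ELF4 and COR28 at 0.591 (11 libraries). BOA and COR28 followed at 0.632 (11 libraries), and FKF1 and PRR5 were farthest apart at 2.21 (12 libraries). Among 1956 other genes with a homologue, the nearest to ELF4 were WCRKC1, a chloroplast thioredoxin, at 0.482 (11 libraries), MOT2, a molybdate transporter, at 0.494 and AT3G03341 at 0.675 (12 libraries each). Nearest to PRR5 were AT1G78460, of the SOUL heme-binding family, at 0.374, LBD39, a LOB-domain factor, at 0.415 and AT5G52030 at 0.446. For BOA they were AT3G03170 at 0.469, AT5G66440 at 0.476 and AT1G53035 at 0.552. COR28 lay nearest to AT3G03341 at 0.652, ABI5, a bZIP factor of abscisic acid response, at 0.666 and MOT2 at 0.717, among 1863 genes. FKF1 lay no nearer than 0.859 to any gene, with AOG1 first, then DREB2A, a drought-response factor, at 1.02 and LEA4-5 at 1.26. These genes were picked for their likeness over the same libraries, so that sharing a member's pattern is no further evidence of it.

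Other genes of the clock were listed by locus with earlier results of these data known. Few could be paired, since a homologue is given only for genes that the authors listed as changed. Calls of the paired genes, and of the photoperiod and light genes below, are therefore not independent evidence. Of 14 morning MYB-like and LNK loci 1 could be paired, RVE3, a MYB-like factor of the REVEILLE family. At 5 d its FPKM was 5.73, 6.42 and 5.87 for V2 and 1.15, 0.456 and 0.306 for V3. Like ELF4, it was called lower in V3 than in V2 at 5 d (-5.55, adjusted p = 0.000648 by limma, n = 2 in V2) and fell in V3 over time (-5.02, adjusted p = 0.000751). Its normalized counts in V3 at 5 d were 4.87, 0 and 0, so both sizes depend on the 1 added to each count. On log2(FPKM + 0.1) they were -3.22 and -2.94 (adjusted p = 4.10e-05 and 6.63e-05 by limma). Of 18 day and evening clock loci 2 were paired. PRR9, the morning relative of PRR5, had, at 5 d, normalized counts of 1741, 1928 and 1589.6 for V2 and 1018, 645 and 700.2 for V3. It was called lower in V3 (-1.18, adjusted p = 0.00605 by limma). PRR9 also fell in V3 over time (-0.96, adjusted p = 0.0219 by limma). Its interaction was not called on counts (-1.21, adjusted p = 0.0639 by limma) but was on log2(FPKM + 0.1) (-1.32, adjusted p = 0.0118). ELF4-L4, a relative of ELF4, was not called between the zones at 5 d on counts (-0.41, adjusted p = 0.501 by limma). On log2(FPKM + 0.1) it was called lower in V3 (-0.75, adjusted p = 0.00465), and its count per FPKM at 5 d was 9.28 in V2 replicate 3 and 17.2 to 23.2 in the other libraries. At 0 d ELF4-L4 had -1.29 on counts, not called (adjusted p = 0.107 by limma), where the authors' deposited table lists -1.37.

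The targets of FKF1 and its photoperiod pathway were represented by 3 of 10 loci. CDF1 encodes a Dof repressor of CO and FT whose protein FKF1 helps to degrade. It had no usable count in V3 at 5 d, all 3 being 0 against FPKM of 2.45, 1.27 and 2.27, and V2 at 5 d had 7.27, 7.69 and 6.32. On log2(FPKM + 0.1) it was lower in V3 at 5 d by limma (-1.83, adjusted p = 0.000258). The authors' deposited table gives -9.39 for CDF1, computed where the counts are listed at 0. COL9, a CONSTANS-like repressor of flowering, was lower in V3 at 5 d (-1.05, adjusted p = 0.00351 by limma) and rose in V2 over time (0.65, adjusted p = 0.0433). COL2 fell over time in both zones (V2: -2.90, adjusted p = 0.0213, V3: -3.96, adjusted p = 0.00488 by limma), and between the zones at 5 d it had 0.43 (adjusted p = 0.705).

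Light signalling was represented by 2 of 12 loci, PIF3 and PIF5, which encode phytochrome-interacting factors. PIF3 was lower in V3 at 5 d (-1.77, adjusted p = 0.00346 by limma), and PIF5 had -1.49 (adjusted p = 0.0538). On log2(FPKM + 0.1) PIF5 too was called lower there (-1.73, adjusted p = 0.00430 by limma). At 0 d PIF3 and PIF5 already had -1.06 and -1.50 on counts, not called (adjusted p = 0.0933 and 0.120 by limma). On log2(FPKM + 0.1) they were called lower in V3 at 0 d (-0.63 and -1.34, adjusted p = 0.0404 and 0.0337 by limma), where 23.7% of the listed genes were. The evening complex represses PIF5 in A. thaliana. Neither PIF gene was called over time in V3, at 0.11 for PIF3 and 0.31 for PIF5 (adjusted p = 0.863 and 0.730 by limma).

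Cold-response genes were set beside COR28, with 7 of 17 loci paired. At 5 d 6 of the 7 were lower in V3, with a median of -2.13, where 20.0% of all genes tested were called lower and their median was -0.03. These 7, too, carry names because the authors listed them as changed. GOLS3, a galactinol synthase, had 211, 185 and 149 normalized counts in V2 and was listed at 0 in all 3 V3 libraries (FPKM 0.144, 0.156 and 0). ERD10, a dehydrin, differed by -2.91 (adjusted p = 0.000728 by limma), CBF4, an AP2 factor, by -3.86 (adjusted p = 0.00253) and COR413-PM1, a membrane protein, by -1.14 (adjusted p = 0.00979). ZAT10, a zinc-finger factor, had -1.88 (adjusted p = 0.237). At 0 d 2 of the 7 were lower in V3, where 3.22% of all genes tested were, namely ERD10 (-1.65, adjusted p = 0.0487 by limma) and GOLS3 (-1.85, adjusted p = 0.0442, n = 2 in V3). On log2(FPKM + 0.1) they were 4 of 7, with COR413-PM1 and ZAT10 added, where 23.7% of the listed genes were lower. Whether these genes differ from the 5 members at 0 d was not tested. Over time in V3, 1 of the 7 fell, GOLS3, and 1 rose, ZAT10 (5.00, adjusted p = 0.0127 by limma), beside 11.1% of all genes called lower and 13.5% higher. In V2, where 12.5% of all genes were called higher and 11.3% lower, ZAT12 rose (1.55, adjusted p = 0.0433) and GOLS3 fell (-1.83, adjusted p = 0.00929).

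**Figure D4:**
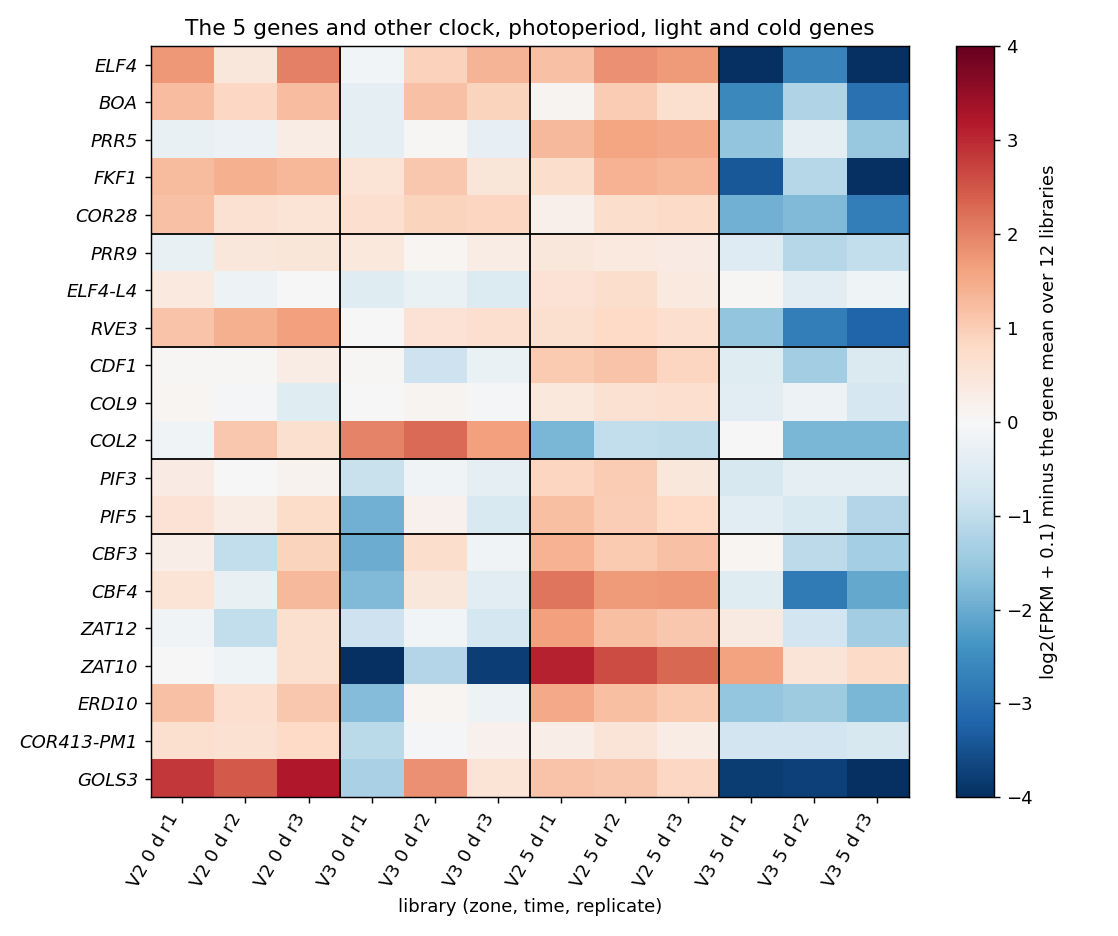
Columns are the 12 libraries and rows the 5 genes and, below the first line, the paired clock, photoperiod, light and cold genes. Colour is log2(FPKM + 0.1) minus the gene's mean over 12 libraries, with values beyond 4 in either direction drawn at 4. The 5 genes are blue in the V3 5 d libraries and not in the other groups except for pale values. PRR5 in V3 5 d replicate 2 is itself pale, at 17.0 FPKM as in V3 0 d replicate 1. COL2 is highest in V3 at 0 d and ZAT10 in V2 at 5 d.

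Markers of tissues that a bud sample can hold could be paired only where the authors had listed the gene as changed. That the paired markers moved with the groups is therefore not independent evidence. Of 9 bud and meristem loci 1 was paired, CUC3, a boundary gene present at 3.48 to 13.4 FPKM in every library. It had 9.78 to 13.4 for V2 and 9.77 to 12.9 for V3 at 0 d, and 5.53 to 7.03 for V2 and 3.48 to 5.70 for V3 at 5 d. CUC3 was called lower over time in V2 (-0.98, adjusted p = 0.0237 by limma) and in V3 (-1.60, adjusted p = 0.00215). Between the zones at 5 d it was not called (-0.63, adjusted p = 0.0881). The 3 of 8 photosynthetic leaf markers paired (CA1, GLO1 and FBA2) summed at 0 d to 22.8 to 27.3 FPKM for V2 and 12.0 to 23.6 for V3, and at 5 d to 57.0 to 76.0 for V2 and 85.7 to 94.7 for V3. The 3 of 8 vascular markers paired (XCP1, XCP2 and APL) summed at 0 d to 1.74 to 4.43 for V2 and 0.638 to 1.87 for V3, and at 5 d to 5.60 to 11.9 for V2 and 21.8 to 23.0 for V3. By FPKM none of these 7 genes was at 0 in a whole group. Both sums were thus highest in V3 at 5 d, where the 5 members were lowest, but their genes did not move alike. FBA2 makes up most of the leaf sum, and by limma 0 of the 3 leaf markers was called between the zones at 5 d on counts (on log2(FPKM + 0.1) FBA2 was, at 0.54, adjusted p = 0.0441). XCP1 was called higher in V3 than in V2 at 5 d (2.23, adjusted p = 0.00211 by limma), and XCP2 was not (1.15, adjusted p = 0.378). On log2(FPKM + 0.1) XCP1 and XCP2 were called higher (2.20 and 1.57, adjusted p = 0.0185 and 0.0359 by limma). APL had 2.09 to 3.63 FPKM for V2 and 1.25 to 2.11 for V3 at 5 d, the other way from the vascular sum. These ranges overlap, and the APL difference was not called on log2(FPKM + 0.1) (-0.67, adjusted p = 0.126 by limma). The part of these markers in the members' differences was not tested.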

How the data were processed

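Libraries were made from polyadenylated RNA with a directional kit and sequenced as single reads. Tools named in the submitters' processing notes are TopHat, HISAT2, StringTie and DESeq2, without versions or order, and the genome build is not given in the sources used here. The authors deposited normalized counts, a signal per gene and library, whose values within a library are whole multiples of 1 step, so that whole reads could be recovered (100% within 0.05). In V2 replicate 2 at both times the step is close to 1 and the recovery rests on the smallest value. The authors gave FPKM for 3877 listed genes, 1 with displaced cells. The authors' log2 fold changes and adjusted p-values were deposited for listed genes only, those with an absolute log2 fold change above 1. The deposited summary table was not used. The number of per-sample columns without a sample was 0.

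The main test was limma 3.58.1 (R 4.3.3) on log2(normalized count + 1) with a trend of variance on intensity, a mean for each of the 4 groups and 1 fit to all 12 libraries. The design allowed for edgeR if counts had been raw. Genes entered with a mean of 10 normalized counts or more and 2 usable libraries or more per compared group. A 0 was left out if its FPKM was at least 1, if the count expected from FPKM reached 20, or, without FPKM, if a partner library held at least 20. In all 17395 values were left out, and 10989 genes had none. The same model was run on log2(FPKM + 0.1) of listed genes, and edgeR 4.0.16 and DESeq2 1.42.0 on whole reads. The labels do not say whether replicates came from separate plants or pools, so p-values measure the spread between these libraries.

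The members, lists and the rule for zeros were chosen with earlier results of these data known. All 5 members were named, up to 4 called genes per list and comparison, and for each member the 3 genes most like it, with a mean of 50 normalized counts or more and 11 shared libraries or more. Sequences were not used here.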

Additional observations from a re-analysis of the deposited data

Results flagged for a closer look

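The change over time differed between the zones, by the interaction in the limma fit, for 6 of the genes described. Among the members these were ELF4, at -3.98 on the log2 scale (adjusted p = 0.00424), COR28, at -4.19 (adjusted p = 0.00254) and PRR5, at -2.54 (adjusted p = 0.00483). Each was lower in all V3 libraries at 5 d than in all V3 libraries at 0 d, with 2 usable libraries for COR28 at 5 d. PRR5 rose in V2 and fell in V3, the fall being called in 16 of 25 alternatives. Among the other genes they were RVE3, at -4.42 (adjusted p = 0.0233), COL9, at -1.10 (adjusted p = 0.0443) and GOLS3, at -5.64 (adjusted p = 0.000286). GOLS3 is listed at 0 in all V3 libraries at 5 d, so that its fitted value depends on the pseudocount and its p can be too low. All 6 genes are in the authors' list for the zones at 5 d, a difference that the interaction contains. Their calls are therefore not independent evidence.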

How the results depend on the processing

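Of 619 member values over 25 alternatives, 576 kept their direction and side of the threshold, 16 lost a call, 11 gained one and 16, all uncalled, changed sign. The 5 d zone difference was called for ELF4, BOA and PRR5 in 25 of 25, FKF1 in 24 and COR28 in 23 of 23 (it was not tested without V3 5 d replicate 1 or 3, which leaves 1 usable library). At 0 d no member was called in any. Members called in V3 over time, 5, became 3 with only the groups compared in the fit and 3 with edgeR, and 2 to 5 leaving out 1 library, with 2 without V3 5 d replicate 1 or 3. Members with a called interaction, 3, became 5 on log2(FPKM + 0.1), 5 on log2(FPKM + 1) and 2 (without V3 5 d replicate 1 or 3, where COR28 was not tested) to 5 (without V3 5 d replicate 2) leaving out 1 library. The COR28 interaction was lost with edgeR (adjusted p = 0.109). The cause was not tested.

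Genes called at 0 d, 714, became 370 with the replicate block, 207 with only the groups compared in the fit, 1323 and 1274 on log2(FPKM + 0.1) and log2(FPKM + 1) of listed genes, 394 with edgeR, 2193 with DESeq2, 238 without V2 0 d replicate 3 and V3 0 d replicate 1, and 185 (without V2 0 d replicate 1) to 1748 (without V3 0 d replicate 2) leaving out 1 library. At 5 d 6155 became 3131 with zeros as deposited, 2504 and 2631 on FPKM and 2760 with edgeR, and 4690 to 6910 leaving out 1 library. In V2 over time 3926 became 2140, 2017, 2112 and 1705 in the same order, and 2060 (without V2 0 d replicate 2) to 4857. In V3 over time 4149 became 2052, 2163, 2126 and 1583, and 2817 to 4085. The interaction's 1126 became 516 with edgeR, 2051 with DESeq2, 1730 without the 2 libraries named and 658 (without V3 5 d replicate 2 or 3) to 1916 (without V3 0 d replicate 1). Fewer genes are tested on FPKM, and for the rest the cause was not tested.

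Signs changed at 0 d for ELF4 (0.00386 without the 2 libraries named, -0.89 to -0.22 leaving out 1 library), BOA (-0.54 to 0.37 leaving out 1 library) and COR28 (-0.41 to 0.00400 leaving out 1 library, 0.0227 and 0.0197 on log2(FPKM + 0.1) and log2(FPKM + 1)). In V2 over time, leaving out 1 library gave -0.19 to 0.47 for ELF4, -0.47 to 0.31 for BOA and -0.17 to 0.22 for FKF1, which had 0.05 without the 2 libraries named and 0.0209 with DESeq2. FPKM + 1 and the 2-library setting were chosen after seeing the data. Same-numbered libraries did not deviate together (18 correlations from -0.135 to 0.103, 1 over 0.1, and 2 of 12 libraries closest to their own number). This check cannot exclude that they share plants or a harvest, which the labels do not give. The replicate block left no member call changed.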
